A study of Caenorhabditis elegans with 2 samples.

Results

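The genes described here are the long intergenic non-coding RNA genes, called lincRNA genes below, of Caenorhabditis elegans, and the measurement is how much RNA polymerase II was found on them in first-stage (L1) larvae. Members were all genes with the lincRNA biotype in the Ensembl annotation of WBcel235, the assembly also called ce11, and they numbered 194 of 46890 annotated nuclear genes. The rule also left out tts-1, a long non-coding RNA gene on X, but this annotation gives tts-1 the biotype ncRNA, so that step removed no gene. Its strongest region had a signal of 274 in the pooled list, 181 in replicate 1 and 96.3 in replicate 2, above any lincRNA gene in each list. Of the 194 members, 169 carry a linc- name and 25 have another name.

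Chromatin immunoprecipitation followed by sequencing was done with an antibody to AMA-1 on whole L1 larvae of strain N2, the wild-type laboratory strain, with both sexes mixed and the age unknown. The 2 biological replicates form 1 group with no second condition, so comparisons here are between genes, gene classes and replicates. The deposited lists hold 30000 regions for each replicate and 30000 for the pool of both, background regions included, and a thresholded consensus list holds 1328 regions. Each region has a summit and a signal value from the authors' peak caller. The number of reads behind the lists is not given, so the sequencing depth is unknown. Per the labels the fragments had a size range of 150 to 350, with no unit given. Because whole animals were used, occupancy in few cells and low occupancy in many cells cannot be told apart.

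AMA-1 is the large, catalytic subunit of RNA polymerase II, the enzyme that transcribes protein-coding genes and most long non-coding RNAs. Its signal on chromatin marks where the polymerase sits, which includes paused and elongating enzyme, and does not give the amount of stable RNA. LincRNA genes are meant to lie outside coding genes, although 42 of these 194 overlap one in the annotation, 23 of them on the same strand. They are often lowly expressed, and most of those with linc- names were catalogued from transcript assemblies without a known function. In C. elegans the 5' end of many messenger RNAs is replaced by a spliced leader in trans-splicing, so that an annotated 5' end can lie downstream of where transcription starts.

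A gene was given a region where the summit lay between 500 bp upstream of its annotated 5' end and its 3' end. A consensus peak was present at 12 of 194 lincRNA genes, 6.19% with an exact 95% binomial interval of 3.24 to 10.6%. The same count was 2.68% of all annotated nuclear genes and 4.68% of protein-coding genes. Among the 152 members that overlap no protein-coding gene it was 7, or 4.61%, close to the share of protein-coding genes. A consensus peak above the median signal of the consensus list, 47, was present at 5 members, 2.58%. That cut was not applied to other genes. The 12 were K07C10.8, linc-78, linc-90, linc-1, linc-2, Y41C4A.17, linc-129, linc-91, linc-143, linc-105, linc-136 and linc-142. No region in any of the pooled and replicate lists was found at 100 of the 194 lincRNA genes, 51.5%, against 65.9% of all genes and 46.7% of protein-coding genes.

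The stretches below run from 250 bases upstream of the annotated 5' end to 50 bases downstream. They are given for the 5 lincRNA genes of highest pooled signal whose strongest summit falls in that stretch. They show the sequence around these gene starts, and the pooled region need not cover all of it. The linc-2 region ends at 5024801, before the GA repeat marked there. The linc-105 region starts at 10718116, after the TGATAA match marked there. All stretches were read from the RefSeq copy of WBcel235 on the strand of the gene. linc-78 is at chrX:2242865-2243164 (plus strand), linc-2 at chrIII:5024631-5024930 (plus), linc-105 at chrIII:10718091-10718390 (plus), linc-103 at chrX:6256528-6256827 (plus) and linc-50 at chrIV:5582213-5582512 (minus). Capitals mark matches to 1 of 7 motifs, which are TATAAA (the TATA box core), GAGAGA (a GA repeat), TGATAA (bound by a family of zinc-finger regulators), CACGTG (an E-box), the alternating stretch GCGCGC and the GC box CTCCGCCC on either strand, and TTTCAG (the form of a trans-splice acceptor) on the gene's strand, so a match on the other strand reads as its reverse complement.
linc-78: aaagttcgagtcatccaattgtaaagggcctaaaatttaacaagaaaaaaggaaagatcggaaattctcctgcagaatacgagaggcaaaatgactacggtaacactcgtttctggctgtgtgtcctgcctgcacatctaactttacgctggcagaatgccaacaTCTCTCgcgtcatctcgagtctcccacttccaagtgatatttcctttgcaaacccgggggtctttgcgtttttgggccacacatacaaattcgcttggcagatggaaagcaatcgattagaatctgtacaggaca
linc-2: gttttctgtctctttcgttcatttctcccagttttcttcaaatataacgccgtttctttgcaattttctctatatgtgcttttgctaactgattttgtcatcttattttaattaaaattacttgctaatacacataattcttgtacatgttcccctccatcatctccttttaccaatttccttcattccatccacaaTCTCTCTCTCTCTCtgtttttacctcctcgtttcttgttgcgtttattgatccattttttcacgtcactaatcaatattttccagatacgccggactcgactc
linc-105: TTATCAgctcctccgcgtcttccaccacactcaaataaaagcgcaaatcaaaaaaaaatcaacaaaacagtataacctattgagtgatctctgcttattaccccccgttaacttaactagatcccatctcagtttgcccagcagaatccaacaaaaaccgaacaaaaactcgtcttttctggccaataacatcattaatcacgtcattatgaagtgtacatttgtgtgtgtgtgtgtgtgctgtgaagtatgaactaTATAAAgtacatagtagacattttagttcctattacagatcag
linc-103: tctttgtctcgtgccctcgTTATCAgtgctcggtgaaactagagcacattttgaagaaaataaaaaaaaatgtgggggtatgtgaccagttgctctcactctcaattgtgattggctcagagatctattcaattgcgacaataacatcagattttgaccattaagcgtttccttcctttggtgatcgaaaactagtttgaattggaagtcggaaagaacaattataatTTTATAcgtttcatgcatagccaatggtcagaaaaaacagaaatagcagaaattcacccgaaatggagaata
linc-50: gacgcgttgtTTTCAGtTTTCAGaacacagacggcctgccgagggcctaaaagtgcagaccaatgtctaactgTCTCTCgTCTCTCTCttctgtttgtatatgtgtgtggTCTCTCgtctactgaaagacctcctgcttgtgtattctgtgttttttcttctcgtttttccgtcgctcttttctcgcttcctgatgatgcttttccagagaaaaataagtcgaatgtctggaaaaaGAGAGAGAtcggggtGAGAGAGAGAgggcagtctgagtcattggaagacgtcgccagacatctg
The first 2 and the last held GAGAGA, and linc-105 and linc-103 held TGATAA and TATAAA. linc-50 also held TTTCAG at 240 and 233 bp upstream. The GA repeat began 85 bp upstream of the 5' end of linc-78 and ran over 5 overlapping matches from 53 to 45 bp upstream in linc-2. In linc-50 it appeared in 9 matches, some of them overlapping, 4 of them on the other strand between 177 and 140 bp upstream and 5 on the gene's strand between 14 bp upstream and 5 bp downstream. The TATA core lay 7 bp downstream of the 5' end in linc-105 and, on the other strand, 22 bp upstream in linc-103. A match is only a run of letters and was not shown to be a bound site.

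GAGAGA was in the stretch of 50 of 194 lincRNA genes, 25.8%, and of 21.8% of protein-coding genes. It was in 38.8% of the 67 lincRNA genes with a region of the pooled list and 18.9% of the 127 without one. Protein-coding genes had it at 26.6% with a pooled region and 18.2% without. The share was higher in genes with a region in both classes, and no test of the difference between classes was made. TTTCAG was in 30.4% of lincRNA and 39.6% of protein-coding stretches. It was in 19.4% of lincRNA genes with a pooled region and 36.2% of those without one, while protein-coding genes had 45.2% with a region and 35.4% without. The acceptor letters therefore ran in opposite directions in the 2 classes. TATAAA was in 29.9% of lincRNA and 37.9% of protein-coding stretches, and TGATAA in 26.3% and 30.2%. The E-box was in 3.61% of lincRNA and 5.82% of protein-coding stretches, the GC stretch in 3.09% and 3.58%, and the GC box in 1.55% and 2.4%, so all 3 were rare in both classes. Median GC content was 35.7% in lincRNA and 34.3% in protein-coding stretches.

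At 4 lincRNA genes off the first chromosome the consensus summit fell inside the gene and in no window of a protein-coding gene, and 101 bases centred on it are given to show the sequence there. The builds and source are as above, and the capitals mark the 11 bases centred on the summit. K07C10.8 is at chrII:11167142-11167242 (plus strand), Y41C4A.17 at chrIII:11641660-11641760 (plus), linc-129 at chrIII:10818517-10818617 (plus) and linc-136 at chrV:3717806-3717906 (minus).
K07C10.8: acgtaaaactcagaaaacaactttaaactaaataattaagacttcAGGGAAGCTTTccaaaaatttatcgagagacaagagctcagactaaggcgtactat
Y41C4A.17: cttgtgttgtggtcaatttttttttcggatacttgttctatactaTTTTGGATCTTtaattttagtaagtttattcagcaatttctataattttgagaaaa
linc-129: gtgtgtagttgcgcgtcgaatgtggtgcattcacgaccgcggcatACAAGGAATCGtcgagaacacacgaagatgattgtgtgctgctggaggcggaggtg
linc-136: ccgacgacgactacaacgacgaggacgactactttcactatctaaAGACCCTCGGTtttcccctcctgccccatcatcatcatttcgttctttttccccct
GC content of the 4 stretches ran from 24.8% in Y41C4A.17, over 33.7% in K07C10.8 and 50.5% in linc-136 to 55.4% in linc-129. All of the 340 bp region around the summit of linc-136 was unique in the genome by 31-base words, although only 45.4% of that gene and its upstream window was.

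A region of the pooled list was present at 67 lincRNA genes, 34.5% (27.9 to 41.7%), against 25.6% of all annotated nuclear genes and 42.8% of protein-coding genes. Replicate 1 had a region at 77 members, 39.7%, against 25.1% of all genes and 42.6% of protein-coding genes. Replicate 2 had one at 72, 37.1%, against 27.1% and 44.8%. A region in each of these 3 lists was found at 53 members, 27.3% (21.2 to 34.2%), against 17.9% of all genes and 33.4% of protein-coding genes. Any region in the window counted, so the regions of a gene need not lie at the same place. A region among the highest 10% was counted in each replicate list, above a signal of 16.5 in replicate 1 and 11.3 in replicate 2. Both replicates had one at 14 members, 7.22% (4 to 11.8%), against 2.84% of all genes and 5.18% of protein-coding genes. For this count too, the regions of a gene need not lie at the same place. The lincRNA interval held the protein-coding share for consensus peaks, for all 3 lists and for the highest 10%, and lay below it for the pooled list. The antisense RNA and ncRNA classes gave 38 of 100 genes and 24.2% of 7764 genes with a pooled region, and 4 of 100 and 2.23% with a consensus peak. The intervals cover the counting of genes only, and genes are not independent replicates, so no test was made between classes.

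Gene length differs between classes and moves with the count. LincRNA genes ran from 101 to 6035 bp with a median of 761 bp, and protein-coding genes had a median of 2027 bp. The median lincRNA gene with a pooled region was 1478 bp long and without one 626 bp. Under 500 bp, 17 of 67 lincRNA genes had a pooled region, 25.4%, against 20.6% of protein-coding genes. From 500 bp to under 1500 bp it was 18 of 71, also 25.4%, against 32.5%. From 1500 bp it was 32 of 56, 57.1% (43.2 to 70.3%), against 49.4%. The interval of lincRNA genes held the protein-coding share in each length class, while lincRNA genes were the shorter class. Consensus peaks were at 4 of 67, 2 of 71 and 6 of 56 lincRNA genes in these classes, or 5.97%, 2.82% and 10.7%, against 2.99%, 3.99% and 5.13% of protein-coding genes.

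**Figure D1:**
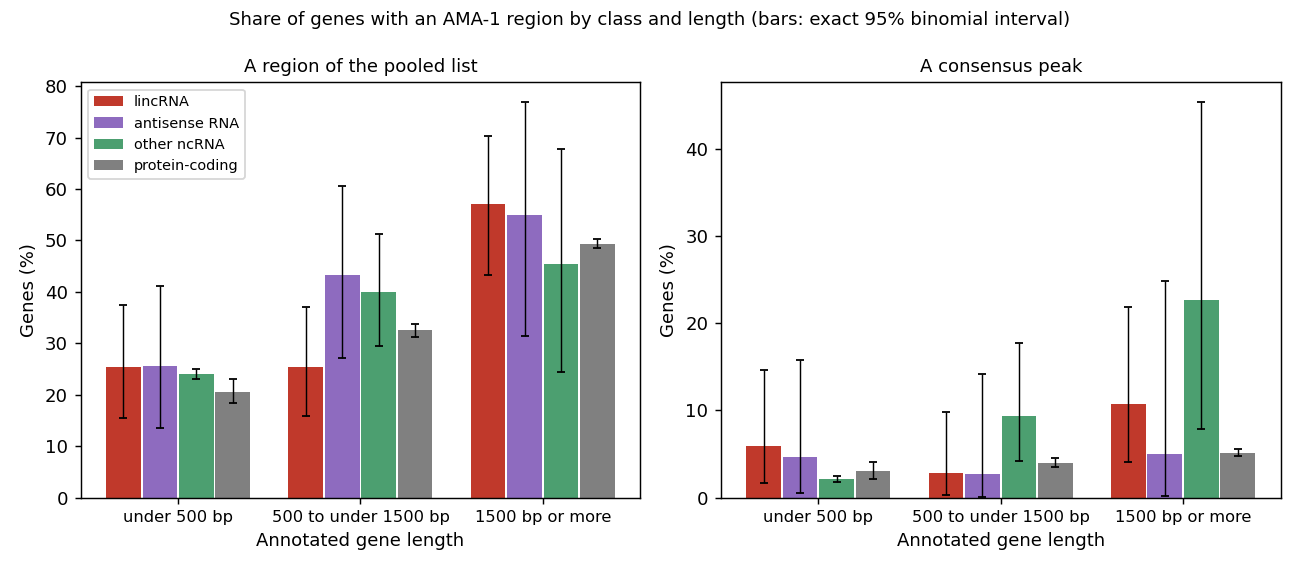
Share of genes (percent) with a region of the pooled list (left) or a consensus peak (right), by annotated gene length, for lincRNA, antisense RNA, other ncRNA and protein-coding genes; lines are exact 95% binomial intervals. LincRNA genes of 1500 bp or more reach 57.1% for the pooled list and 10.7% for consensus peaks, against 49.4% and 5.13% of protein-coding genes, with wide intervals that hold the protein-coding share.

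The plot of shares by gene length shows this for each class with its interval. Counted per length of sequence instead of per gene, the merged lincRNA windows covered 330 kb and held 446 pooled summits per Mb, against 334 in protein-coding windows and 299 over the nuclear genome. The replicates gave 452 and 427 per Mb in lincRNA windows, against 338 and 327 in protein-coding windows. Consensus summits stood at 45.5 per Mb, which is 15 summits, against 13.8 in protein-coding windows and 13.2 over the genome. Antisense RNA windows held 511 pooled and 26.9 consensus summits per Mb, the latter from 4 summits, and ncRNA windows 419 and 33.9. All 3 non-coding classes therefore had more summits per Mb of window than coding genes in both lists. A summit in windows of several classes was counted in each. Of the strongest pooled summits, 22.4% of lincRNA, 92.1% of antisense RNA and 59.5% of ncRNA ones also lay in a coding gene's window. Windows of every class include 500 bp upstream of each gene, which is a larger part of a short gene's window.

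Where a region was there, its signal spanned much the same middle range as in coding genes. The strongest pooled signal of the 67 lincRNA genes had a median of 15.2 with quartiles of 10.3 and 22.9, against 13.7 with quartiles of 8.91 and 22 in protein-coding genes. Within the pooled list the lincRNA median lay at percentile 76.1 and the protein-coding median at 71.1. The highest lincRNA signal was 92.2, against 417 in protein-coding genes and 803 in ncRNA genes. Signals of members ran from 5.1 to 92.2 in the pooled list, from 3.21 to 64.6 in replicate 1 and from 2.42 to 52.6 in replicate 2, while the medians over the whole lists were 9.56, 6.42 and 4.53. Of the 67 members, 16 lay below the median of the pooled list.

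Consensus peaks with the summit in no other annotated gene's window come first. These were 6 of the 12, namely linc-1, Y41C4A.17, linc-129, linc-91, linc-105 and linc-136. Y41C4A.17, at chrIII:11641642-11641903 and 262 bp long, had signals of 46.3 in the pooled list, 28.4 in replicate 1 and 17.9 in replicate 2, with the summit 68 bp downstream of its 5' end in an exon. It ranked 908 in replicate 1 and 965 in replicate 2 of 30000 regions, so both replicates placed it high. The gene has no coding overlap and its window is 100% unique.

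linc-129, at chrIII:10817263-10821245 and 3983 bp long, had the most regions of any member, 10 in the pooled list, 7 in replicate 1 and 9 in replicate 2. It held 3 consensus peaks, with pooled signals of 45.8 at 1304 bp, 41.5 at 2567 bp and 40.1 at 3567 bp from the 5' end, the first in the intron and the others in an exon. A further pooled region of signal 25.3 lay 80 bp from the 5' end. The strongest signal was 33.7 in replicate 1 and 18.4 in replicate 2, at percentiles 98 and 97 of those lists, and polymerase regions thus ran along the whole of this gene. linc-91, at chrI:4699610-4702866 and 3257 bp long with 1 exon, was alike in form, with 6 pooled regions. Its strongest stood 1815 bp into the gene at 41.7 in the pooled list, 21.9 in replicate 1 and 21.6 in replicate 2, and a second of 31.2 lay 195 bp upstream of the 5' end.

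linc-105 and linc-136 put the summit at opposite ends of the gene. linc-105, at chrIII:10718341-10719485 and 1145 bp long, had its peak 55 bp upstream of the 5' end with signals of 35.8 in the pooled list, 25.8 in replicate 1 and 10.3 in replicate 2. Weaker pooled regions of 13.9 and 19.3 followed at 375 and 925 bp. The promoter stretch of linc-105 printed above lies under the peak, except for its first bases, which hold the TGATAA match. With a window of 1000 bp upstream the strongest pooled region of linc-105 was another, at percentile 98.8 in place of 96. linc-136, at chrV:3717700-3723734 on the minus strand and 6035 bp long, is the longest member, and its peak lay 5878 bp from the 5' end, at 97.4% of the gene's length. Its signals were 35.5 in the pooled list, 17.5 in replicate 1 and 18.2 in replicate 2, which are percentiles 91.1 and 97 of the replicate lists.

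linc-1, at chrI:13652524-13652727 and 204 bp long, had a pooled signal of 51.2 with the summit on its last base, 203 bp from the first. Inside its window replicate 2 had a region of 17 at percentile 96.3, and replicate 1 only one of 3.22 at percentile 2.5. Replicate 1 did have a strong region at this place, with a signal of 32.1 and rank 676, but its summit lay 14 bp past the 3' end. The low value of replicate 1 at linc-1 is therefore set by where the window ends, and the pooled region itself runs past the 3' end, to 13652896.

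At the other 6 genes with a consensus peak the summit also lay in the window of another gene, so the peak is shared between annotated genes. K07C10.8, at chrII:11166676-11167706 and 1031 bp long, had the highest signal of all members, 92.2 in the pooled list, 64.6 in replicate 1 and 26.1 in replicate 2. The summit was in the middle of the gene, 516 bp from its 5' end in an intron, and only 25 bp upstream of the snoRNA gene K07C10.2, which is on the same strand; small nucleolar RNAs guide the modification of ribosomal RNA. The ncRNA gene K07C10.3 spans nearly the same bases on that strand, and the ncRNA gene K07C10.6 lies over the snoRNA gene on the other strand. The region was only 201 bp wide, against 340 bp at each of the other genes with a consensus peak.

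linc-78, at chrX:2243115-2243239 and 125 bp long, came next with 86.4 in the pooled list, 53.2 in replicate 1 and 33.1 in replicate 2, at 122 bp upstream of the 5' end. The same summit lay 375 bp upstream of rpl-11.2, a gene for a protein of the large ribosomal subunit on the other strand, and 122 bp upstream of AH9.7, an ncRNA gene with the same 5' end as linc-78. linc-90, at chrIII:352222-355402 and 3181 bp long, had 61.2, 35.1 and 26.1 in the pooled list, replicate 1 and replicate 2, at 2462 bp in an intron. That summit was 116 bp into gei-4, which encodes a protein named for its interaction with GEX-3 and runs on the other strand from there. linc-90 held 6 pooled regions and a second consensus peak of 37.7 at 2971 bp. Both genes thus carry their peak at or beside the start of a coding gene read in the other direction.

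linc-2, linc-143 and linc-142 overlap a coding gene on the same strand. linc-2, at chrIII:5024881-5025007 and 127 bp long, had signals of 47.9 in the pooled list, 23.2 in replicate 1 and 27.6 in replicate 2, at 249 bp upstream of its 5' end and 282 bp upstream of pcf-11, a gene for a factor of transcript cleavage and transcription termination. linc-143, at chrIII:3035541-3037543 on the minus strand, had 35.9 in the pooled list, 21.1 in replicate 1 and 15.5 in replicate 2, at 1323 bp, which is 4626 bp into the 46333 bp gene daf-2, the insulin receptor gene. linc-142, at chrX:12517114-12519034 on the minus strand, had 34.6 in the pooled list, 24.7 in replicate 1 and 13.5 in replicate 2, at 1545 bp. That place is inside the 21903 bp gene scd-1, named as a suppressor of constitutive dauer formation. The strongest replicate 2 region of linc-142, with 14.9, lay elsewhere, 181 bp upstream of its 5' end. At these 3 genes polymerase on the lincRNA gene and on the coding gene cannot be told apart.

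**Figure D2:**
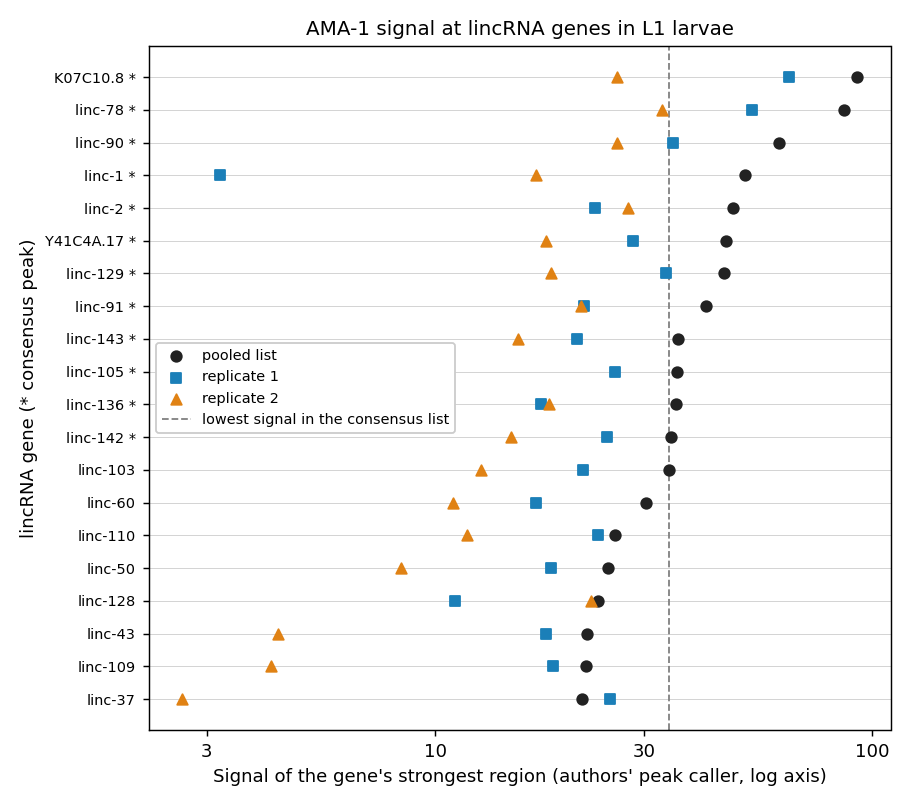
Signal of the strongest region (log axis, value of the authors' peak caller) in the pooled list, replicate 1 and replicate 2 for the 20 lincRNA genes of highest pooled signal with a region in all 3 lists; a star marks a consensus peak and the dashed line is the lowest signal in the consensus list, 34.3. Pooled signals run from 92.2 at K07C10.8 to 21.7 at linc-37, and the lowest values are 2.64 in replicate 2 at linc-37 and 3.22 in replicate 1 at linc-1.

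The plot of the 20 highest members shows that replicate 1 was higher than replicate 2 at 16 of them and lower at 4, which goes with the higher median signal of the replicate 1 list. Among these 20 the summit lay upstream of the 5' end in 8, in an exon in 9 and in an intron in 3, and 11 shared it with no other gene's window. The first below the consensus limit was linc-103, at chrX:6256778-6258976, with 34.2 in the pooled list, 21.8 in replicate 1 and 12.7 in replicate 2, where the lowest consensus signal was 34.3. Its summit lay 156 bp upstream, against 55 bp at linc-105. Both stretches printed above hold TGATAA and TATAAA, with TATAAA on different strands, and no further comparison of the sequences was made. By signal linc-103 was only just outside the consensus list with the 500 bp window. With 1000 bp upstream it gained a consensus peak, and its strongest pooled region was at percentile 98.8 in place of 95.5.

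The next members were weaker and mostly stood alone. linc-60, at chrIV:14958931-14959349, had 30.3, 17 and 11 in the pooled list, replicate 1 and replicate 2, at 320 bp upstream. linc-110, at chrII:7836075-7841128, had 25.8, 23.6 and 11.8 in the same order, near its 3' end at 4484 bp, where the summit also lies 1 bp upstream of the ncRNA gene T09A5.21. linc-50, at chrIV:5582041-5582262, had 24.8, 18.4 and 8.37, at 93 bp upstream, in the GA-rich stretch printed above. linc-60 and linc-50 were the strongest members on chromosome IV, which had no lincRNA gene with a consensus peak.

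linc-128, at chrV:1150906-1153207 with 6 pooled regions, had 23.6 in the pooled list, 11.1 in replicate 1 and 22.7 in replicate 2, and belongs with linc-1, linc-2 and linc-136 to the 4 of these 20 with a higher value in replicate 2. linc-43, at chrX:13141635-13142031, had 22.3 in the pooled list, 17.9 in replicate 1 and 4.37 in replicate 2, at 54 bp upstream of its own 5' end and 20 bp upstream of the coding gene F09A5.3. linc-109, at chrIII:10732273-10736681, had 22.1 in the pooled list, 18.6 in replicate 1 and 4.2 in replicate 2, at 154 bp upstream. At both the replicate 2 value lay below that list's median of 4.53.

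linc-37, at chrIII:832984-833347, had 21.7 in the pooled list, 25.1 in replicate 1 and 2.64 in replicate 2, at 43 bp downstream of its 5' end. The summit is 45 bp into zip-2, a bZIP transcription factor gene of the response to infection that starts 2 bp before linc-37 on the same strand. The replicates disagreed more here than at all but 2 of the members with a region in both.

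The other 47 members with a pooled region had signals of 5.1 to 18.6 with a median of 12.4, and 12 of them had no region in replicate 2 and 4 none in replicate 1. Of these 47, 8 had the summit in a coding gene's window. By the rule of the 3 highest on each chromosome they include linc-80 on I with 17.3 in the pooled list, 10.7 in replicate 1 and 10.9 in replicate 2, whose summit is also near the 3' end of fasn-1, the fatty acid synthase gene. They also include linc-125 on II with 18.2, 12.5 and 8.19 in the same order, and linc-96 on V with 17.1, 11.6 and 3.97. linc-126 on IV, with 11.5 in the pooled list and 7.41 in replicate 1, had no region in replicate 2. These are moderate signals, between the list median of 9.56 and the highest 10%, which began at 23.4 in the pooled list.

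The position of the strongest summit varied widely along the genes. It lay upstream of the annotated 5' end in 28 of 67 members, 41.8% (29.8 to 54.5%), in an exon in 28 and in an intron in 11. The upstream share was 34.1% in protein-coding genes, 34.2% in antisense RNA genes and 67.3% in ncRNA genes, which are shorter, with a median of 140 bp. Within 250 bp of the 5' end on either side lay 35.8% of lincRNA summits and 38.1% of protein-coding ones. The counting interval of the upstream share held the protein-coding value. Among the 12 with a consensus peak only 3, or 25%, had the summit upstream, and with a window of 1000 bp the share over all members was 58.8%.

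**Figure D3:**
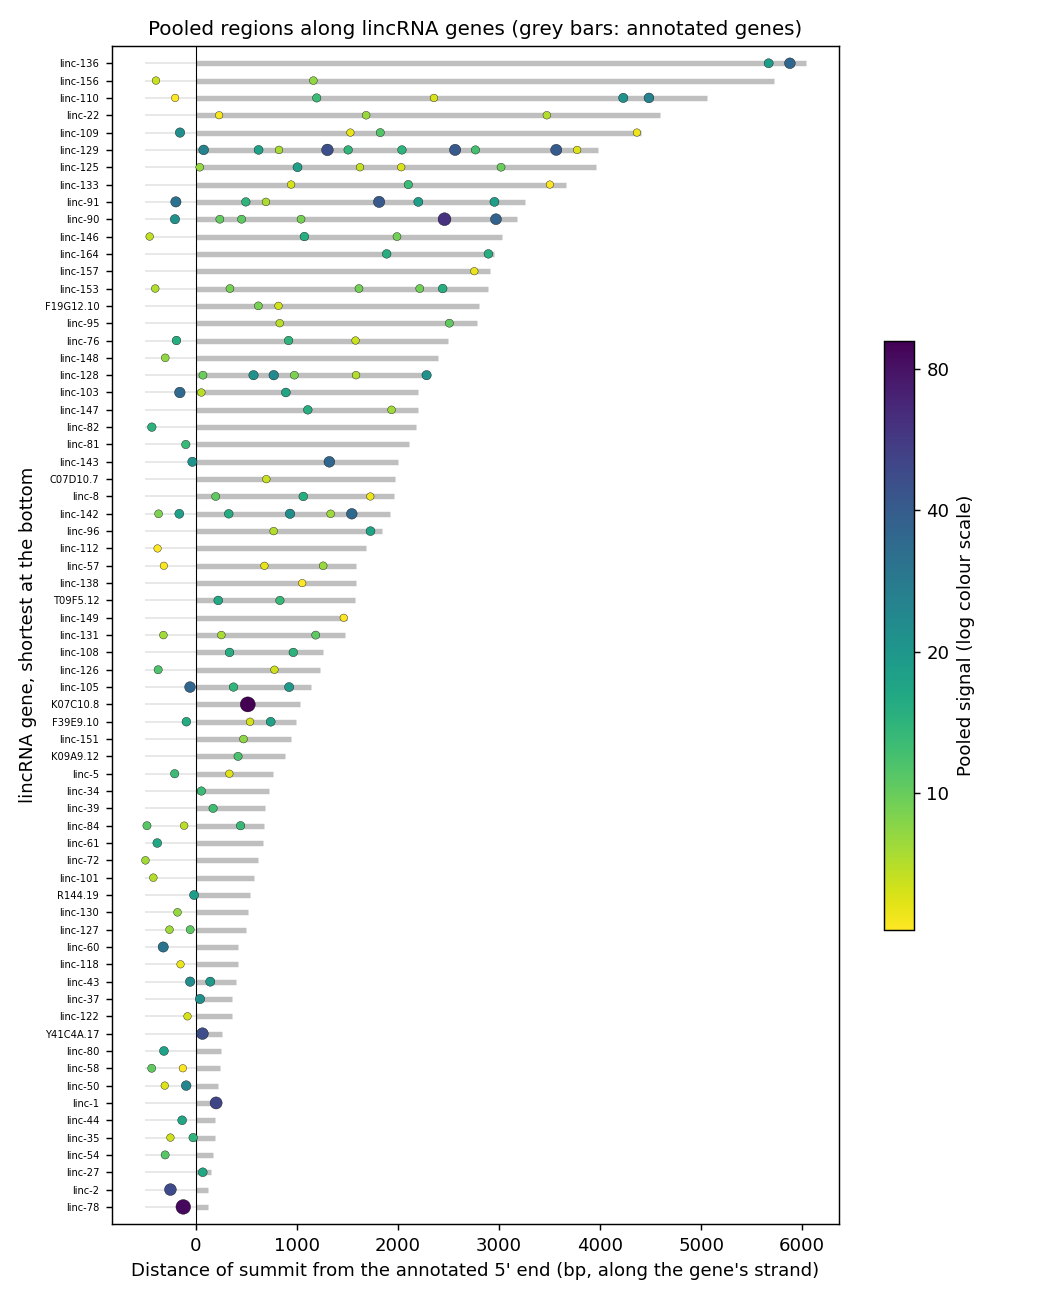
Every pooled region at the 67 lincRNA genes with one, with genes ordered by length. Points lie at the distance of the summit from the annotated 5' end (bp, along the gene's strand). Thick grey bars are the genes and thin lines the 500 bp upstream. Colour gives the signal on a log scale, and point size rises linearly with the signal. The longest gene, linc-136 with 6035 bp, has both summits near its 3' end, while linc-129 carries 10 along its body.

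The map of regions along each gene shows that several regions on 1 gene were common among longer members. A single region was found at 30 members, 2 regions at 17, and 3 or more at 20, of which 8 had 5 or more. In all, 55.2% had several regions, against 63.4% of protein-coding genes and 15.3% of ncRNA genes. Of 56 single-exon lincRNA genes 22 had a pooled region, and of 138 with several exons 45. By strand it was 35 of 93 plus-strand and 32 of 101 minus-strand genes. Of the 25 members without a linc- name 8 had a pooled region, and of the 169 with one 59.

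With the 500 bp window, most strongest summits lay in no other gene's window. The share in no coding gene's window was 77.6%, and it was 52.5% of 80 members when windows reached 1000 bp upstream. Of the 67 strongest summits 42, or 62.7%, lay in no other gene's window, 10 only in that of a non-coding gene and 15, or 22.4%, in that of a protein-coding gene. For protein-coding genes themselves 71.7% stood alone, whereas 92.1% of antisense RNA summits and 59.5% of ncRNA summits lay in a coding window. Among the 12 with a consensus peak 5 lay in a coding window, 6 in none, and 1, K07C10.8, only in those of non-coding genes. Of 42 members that overlap a coding gene 12 had a pooled region, and of 152 that do not 55.

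Both replicates had a region at 57 members, not always at the same place, replicate 1 alone at 20 and replicate 2 alone at 15. This split was not counted over other genes, so it has no background beside it. Of the 57, 4 had none in the pooled list, namely linc-111, linc-150, linc-48 and linc-69, named here after their values were seen, except for linc-48. Within their lists the 57 strongest regions had median percentiles of 79.8 in replicate 1 and 78.6 in replicate 2, with 31 genes higher by percentile in replicate 1 and 26 in replicate 2. Spearman's rho of the percentiles was 0.45 over the 57 genes, as a description of points from the same libraries. At 11 of the 57 the percentiles differed by over 40 points.

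**Figure D4:**
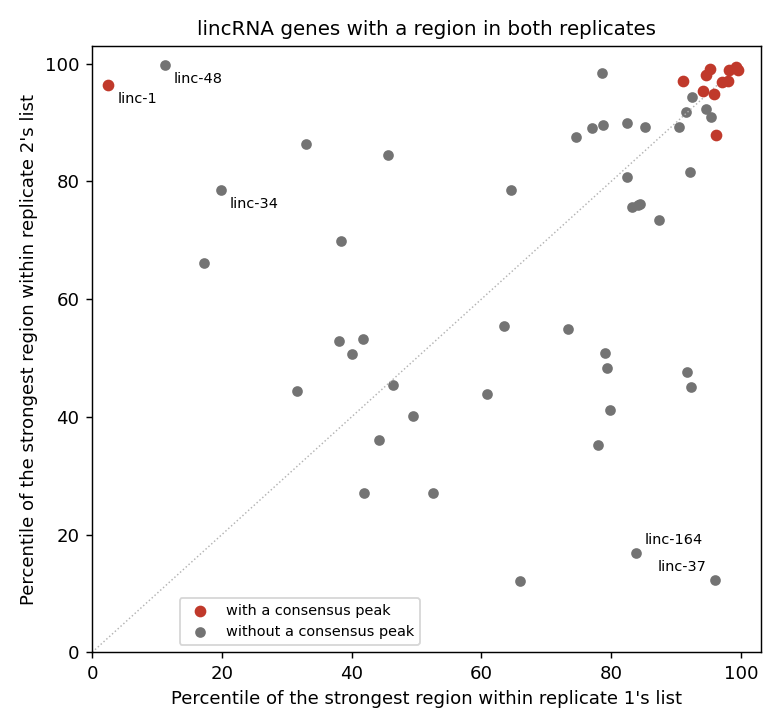
Percentile of the strongest region within the list of replicate 1 (x axis) and replicate 2 (y axis) for the 57 lincRNA genes with a region in both; the dotted line marks equal percentiles and red points have a consensus peak. Red points crowd the upper right except linc-1, whose replicate 1 value is at percentile 2.5, and the 5 largest differences are named.

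The plot of percentiles in both replicates names the 5 largest differences, which are linc-1, linc-48, linc-37, linc-164 and linc-34. The value of linc-48, at chrX:17421887-17422340, was 52.6 at percentile 99.8 in replicate 2 and 3.65 at percentile 11.2 in replicate 1. In replicate 2 the summit lay 499 bp upstream, 1 bp inside the window, while strong regions of 71.4 in replicate 1 and 117 in the pooled list had their summits 573 and 522 bp upstream. So both replicates held a strong region there, and the gene was missed in the pooled list by where the window ended. linc-164 had 13 in replicate 1 and 2.81 in replicate 2, and its pooled region overlapped one of 7.17 in replicate 2 whose summit is outside the gene's window. linc-34 had 4.11 in replicate 1 and 7.72 in replicate 2. At linc-37 the low replicate 2 value of 2.64 was at the place of the pooled region itself, so there the difference is not one of the window.

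A region in the highest 10% of each replicate was also found at 4 members without a consensus peak, linc-103, linc-110, linc-27 and linc-84. Of these, linc-27 and linc-84 are outside the naming rule and were named after their values were seen. At linc-27 the strong summit lay 71 bp downstream of the 5' end in replicate 1 and 452 bp upstream in replicate 2. At linc-84 it lay 480 bp upstream in replicate 1 and 165 bp upstream in replicate 2. linc-1 and linc-105 had a consensus peak and missed the highest 10% in 1 replicate. For linc-105 it was replicate 2, at percentile 87.8. The other 10 of the 12 genes with a consensus peak were among the strongest 10% of each replicate. The consensus list was derived from both replicate lists and the pooled list, so this overlap is no separate support.

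By chromosome, a pooled region was found at 9 of 23 lincRNA genes on I, 15 of 43 on II, 14 of 29 on III, 6 of 26 on IV, 10 of 35 on V and 13 of 38 on X. These are 39.1%, 34.9%, 48.3%, 23.1%, 28.6% and 34.2%, against 52.2%, 43.2%, 59.8%, 42.5%, 31.6% and 37% of protein-coding genes on the same chromosomes. In the pooled list the lincRNA share was below the protein-coding share on every chromosome, and III was the highest in both classes. The replicate lists differed from this. In replicate 1 the lincRNA share was above the protein-coding share on I (60.9% against 53.7%), V (37.1% against 32%) and X (36.8% against 34.2%), and I was the highest chromosome for lincRNA genes. In replicate 2 it was above on V (34.3% against 33.6%) and below on the others, with 34.8% against 52.1% on I. Of the 12 members with a consensus peak, 6 were on III, 2 each on I and X, 1 each on II and V and none on IV. Consensus shares of protein-coding genes by chromosome were not counted here, so these numbers have no background beside them. All are small counts, including 0 of 26 on chromosome IV, and no test was made.

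Within 10000 bp of each other lay 14 pairs of lincRNA genes, of which 3 had a pooled region at both, 2 at 1 and 9 at neither. R144.19, at chrIII:5029917-5030454, was the only one that close to a member with a consensus peak, at 4909 bp from linc-2, and had 18.6 in the pooled list, 11.3 in replicate 1 and 4.59 in replicate 2, at 15 bp upstream of its own 5' end. linc-110 and linc-133 overlap by 3303 bp on opposite strands and both had pooled regions, with strongest signals of 25.8 and 12.8. linc-82 and linc-147, 5006 bp apart, also both had one. linc-133, linc-82 and linc-147 are outside the naming rule and were named after their values were seen.

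No pooled region was found at 127 lincRNA genes, 65.5%, against 74.4% of all genes and 57.2% of protein-coding genes. For these 127 the nearest pooled summit was a median of 4523 bp from the gene's window, against 7189 bp over all genes and 6332 bp over protein-coding genes without a region. It was within 500 bp at 21 of them and over 5000 bp away at 62, or 48.8%, against 59% of all such genes and 56.3% of such protein-coding genes, with a maximum of 87009 bp. One of the 127 is lep-5, at chrX:12652591-12653520 on the minus strand, which is outside the naming rule and was picked for its known role in the change from juvenile to adult development, where it lowers LIN-28. It had no region in any list, and the nearest pooled summit was 9451 bp away. Each list stops at 30000 regions, so a gene without one may still carry weaker signal, which was not analysed here. Windows were at least 90% unique, so that most reads can be placed in them, at 154 of 194 members, 59 of them with a pooled region. Under 50% unique were 11 members, 2 of them with a pooled region.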

How the data were processed

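AMA-1 chromatin immunoprecipitation sequencing of 2 biological replicates of whole N2 L1 larvae, 1 group, was analysed from the 4 deposited lists on ce11; lists on ce10 were not used here. Per the submitters' processing notes the lists came from an irreproducible discovery rate analysis, with input regions per replicate and pooled and a thresholded consensus. The signal of each region is the authors' own deposited value and was not rescaled, so separate lists were compared by percentile or side by side. The peak caller and threshold, not given in the sources used here, and the sequencing depth and control preparation, likewise not stated, could all change which regions are listed. The labels call the replicates biological and name no separate cultures. With 1 group, no p-values were computed.

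A region belonged to a gene where its summit lay from 500 bp upstream to the 3' end, by Ensembl release 115. A base counted as unique where its 31-base word had no second copy in the RefSeq genome. Shares have exact 95% binomial intervals. The reading of windows and summits was tested on simulated lists. The members, motifs and classes were chosen with earlier results of these data known. Named are members with a consensus peak, the 20 highest with a region in all 3 lists, the 5 most unlike between replicates, the 3 highest per chromosome and neighbours within 10000 bp of a member with a consensus peak. Members named outside this rule are said to be so. A further set, members with a strong region and none in 1 replicate, was empty. Alternatives were windows of 250 and 1000 bp, overlap by 1 bp, stricter signal, gene subsets and single lists. Python 3.11.15, numpy 2.4.6, pandas 2.3.3, scipy 1.17.1 and matplotlib 3.10.9 were used.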

Additional observations from a re-analysis of the deposited data

How the results depend on the processing

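With the upstream window at 250 or 1000 bp, counts stayed within 1.5 times, at 12 and 16 lincRNA genes with a consensus peak, 58 and 80 with a pooled region, 45 and 62 in all 3 lists and 11 and 17 in the highest 10% of both replicates. Other choices changed some values, and their cause was not tested. Members that overlap no coding gene gave 7 with a consensus peak and 9 in the highest 10%, with 90.9% of summits in no coding window. Regions above the median of their list gave 5 and, in all 3 lists, 32. The 1000 bp window gave 58.8% of summits upstream and 52.5% in no coding window, and genes with a consensus peak alone gave 25%, 58.3% and a median percentile of 97.7. Leaving out each replicate gave 8 to 11 genes among the first 1328 regions of the remaining list, in place of consensus peaks, 72 to 77 with any region in it, 17 to 20 in its highest 10%, 42.9 to 43.1% upstream, 71.4 to 79.2% in no coding window and median percentiles of 66 to 71.6. For the count in all 3 lists that is also 72 to 77, because 1 list remains. No paired analysis was possible because both replicates form 1 group. Depth is unknown, so weak signal below the listed regions could not be read.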
